A study of Mus musculus with 17 samples.

Results

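Skeletal stem cells (SSC) were set against bone, cartilage and stromal progenitors (BCSP) sorted from the same fracture callus condition, on 12 of the 17 microarrays of the series. The 12 arrays were all those of callus, and they formed 6 pairs, each of 1 SSC and 1 BCSP array that share a condition and a form of title code. The other 5 arrays came from uninjured bone and were used only where callus was set against it.

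The mice were C57BL/6 females. Apart from 2 pairs named below, they had an ovariectomy (OVX) or a sham operation at 8 weeks of age. The callus came from a pin-stabilized femoral fracture, made 6 weeks after that surgery, and was taken 7 days after the fracture. The 6 pairs are named here by their title codes. ES-EB came from OVX mice that carried a pellet of 0.18 mg estradiol (E2), OS-OB from OVX mice, and SS-SB and SIS-SIB from sham mice. The labels of OIS-OIB conflict, since the title names OVX and the treatment field names a sham operation. Those of SI-BI state no ovarian surgery. For these 2 pairs the age at surgery and the time from surgery to fracture are thus not assigned. The uninjured arrays were OUS and OUB from OVX mice, and SU, BU and SUS from sham mice, of which SUS has no BCSP partner. The callus titles have 3 forms of code: codes of 2 letters that start with S, O or E (3 pairs), codes of 3 letters (2 pairs), and the pair SI-BI. The labels do not say that these forms are batches, nor that the arrays came from separate mice, so p-values measure the spread between these pairs, which may be technical.

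In mouse bone the SSC is placed at the top of a hierarchy that gives rise to cartilage, bone and stroma, and the BCSP is the multipotent progenitor just below it. Both lack CD45, Ter119 and Tie2, which mark leukocytes, red cells and endothelium, and carry integrin alpha V. CD105 separates them in the sort and is present on BCSP. CD105 is endoglin, the product of Eng, a co-receptor for ligands of the TGF-beta and BMP family that works with the receptor ALK1 (gene Acvrl1) and is abundant on endothelial cells.

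Eng was lower in SSC in all 6 pairs. Its level, a log2 intensity after quantile normalization, was 7.36 at the lowest, 7.80 at the median and 8.21 at the highest on the SSC arrays, against 9.10, 9.28 and 9.97 on the BCSP arrays. The groups did not overlap. The means were 7.80 ± 0.29 in SSC and 9.37 ± 0.33 in BCSP (SD, n = 6 each), a log2 difference of -1.58, which is 2.98-fold more in BCSP. By pair the difference was -1.27 in SS-SB, -1.41 in OS-OB, -1.83 in ES-EB, -1.70 in OIS-OIB, -2.02 in SIS-SIB and -1.23 in SI-BI. An exact two-sided sign-flip test over the 6 pairs gave p = 0.03125, the smallest that 6 pairs allow. Because the sort divided the cells by the protein of this gene, the result checks the labels and is not a finding about the cells. A second probe set of Eng averaged 7.23 ± 0.87 in SSC and 9.34 ± 0.67 in BCSP (SD, n = 6 each). It was lower in SSC in 5 of 6 pairs (exact sign-flip p = 0.0625), with 0.02 in SI-BI.

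**Figure D1:**
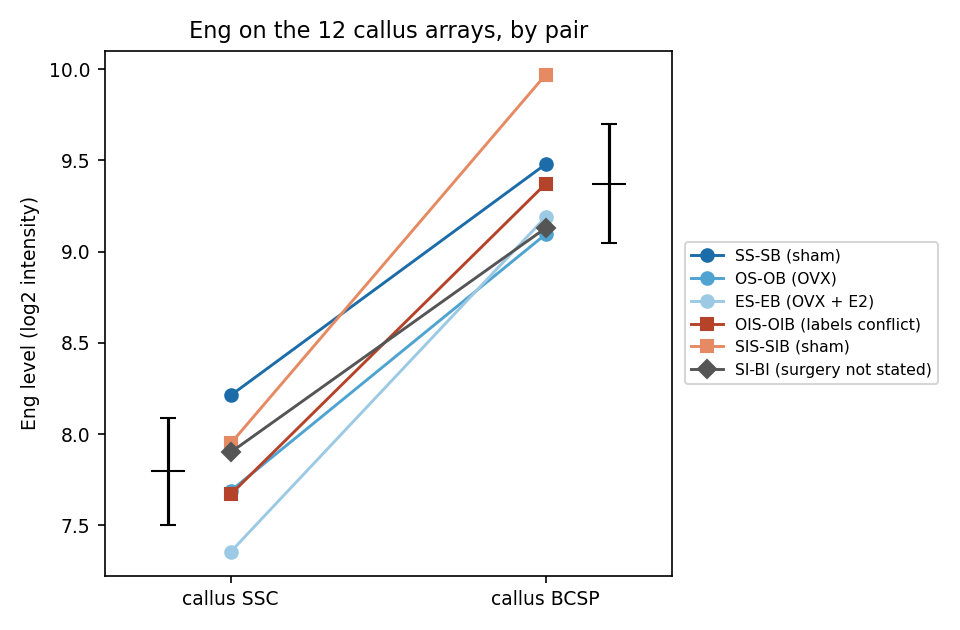
Level of Eng (log2 intensity, vertical axis) on the 6 callus SSC arrays (left) and the 6 callus BCSP arrays (right), with a line for each pair and bars for the mean ± SD. All 6 lines go up toward BCSP, and the highest SSC array (8.21) lies below the lowest BCSP array (9.10).

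The other sort markers varied between pairs. Cd200, a glycoprotein used to define SSC, averaged 12.64 ± 0.63 in SSC and 12.25 ± 0.92 in BCSP (SD, n = 6 each) and was higher in SSC in 5 of 6 pairs (adjusted p = 0.456, limma). Itgav, which encodes integrin alpha V, differed by -0.28, and by -0.18 without SI-BI, and was lower in SSC in 5 of 6 pairs (adjusted p = 0.47, limma). Thy1 was too dim to be tested. Tek, which encodes Tie2, reached at most 7.22 on the SSC arrays, against 11.70 on OIB and 9.88 on SIB and at most 7.81 on the other 4 BCSP arrays. Ptprc, which encodes CD45, spanned 7.77 to 13.53 on the SSC arrays and 6.58 to 12.73 on the BCSP arrays, with OIS highest among SSC and BI highest among BCSP. Tek and Ptprc, whose products the sort was meant to remove, were thus above the floor on every callus array. Their part in the results was not tested.

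The paired comparison was fitted across 14065 genes with limma, with the pair as a block. No gene passed an adjusted p of 0.05 (0% called), and 1464 genes passed an unadjusted p of 0.05, 766 higher and 698 lower in SSC. Eng had the smallest p of all genes, with an adjusted p of 0.151. Without the pair SI-BI, 3 genes passed (0.0213% called): Eng, at -1.65 (adjusted p = 0.0423), the immunoglobulin kappa gene Igk, at 1.48 (adjusted p = 0.0423), and Fpr2, a receptor for formyl peptides on neutrophils and monocytes, at 1.55 (adjusted p = 0.0458, limma). Igk belongs to a multigene family, and its probe set of widest range had the opposite sign (-0.75), so its value is uncertain. Leaving out any other pair gave 0 genes. The fit without the pair term and the one with the pair as a random block each called 1 gene, and limma with array weights called 14. Across genes tested, 635 were lower in SSC in all 6 pairs (4.51% of genes tested) and 528 were higher in all 6 (3.75% of genes tested). The 2 groups of 6 arrays did not overlap for 33 genes lower in SSC (0.235% of genes tested) and for 21 genes higher in SSC (0.149% of genes tested).

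SI-BI stood apart from the other 5 pairs. The SD of the SSC minus BCSP difference over genes was 1.22 in SI-BI, against 0.42 to 0.61 in the others. Spearman's correlation of the partners across genes was 0.770 in SI-BI, against 0.943 to 0.972 in the other pairs. The BCSP array BI correlated at 0.744 to 0.830 with the other callus arrays, which correlated among themselves at 0.856 to 0.976. Its deposited values had an interquartile range of 2.59, against 3.32 to 3.55 on the other callus arrays. The pair differences correlated weakly across genes, at most 0.373 (OIS-OIB with SIS-SIB) and between -0.03 and 0.09 for SI-BI with any other pair. These correlations are across genes, which are not independent replicates. Values below are over all 6 pairs unless SI-BI is said to be left out.

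**Figure D2:**
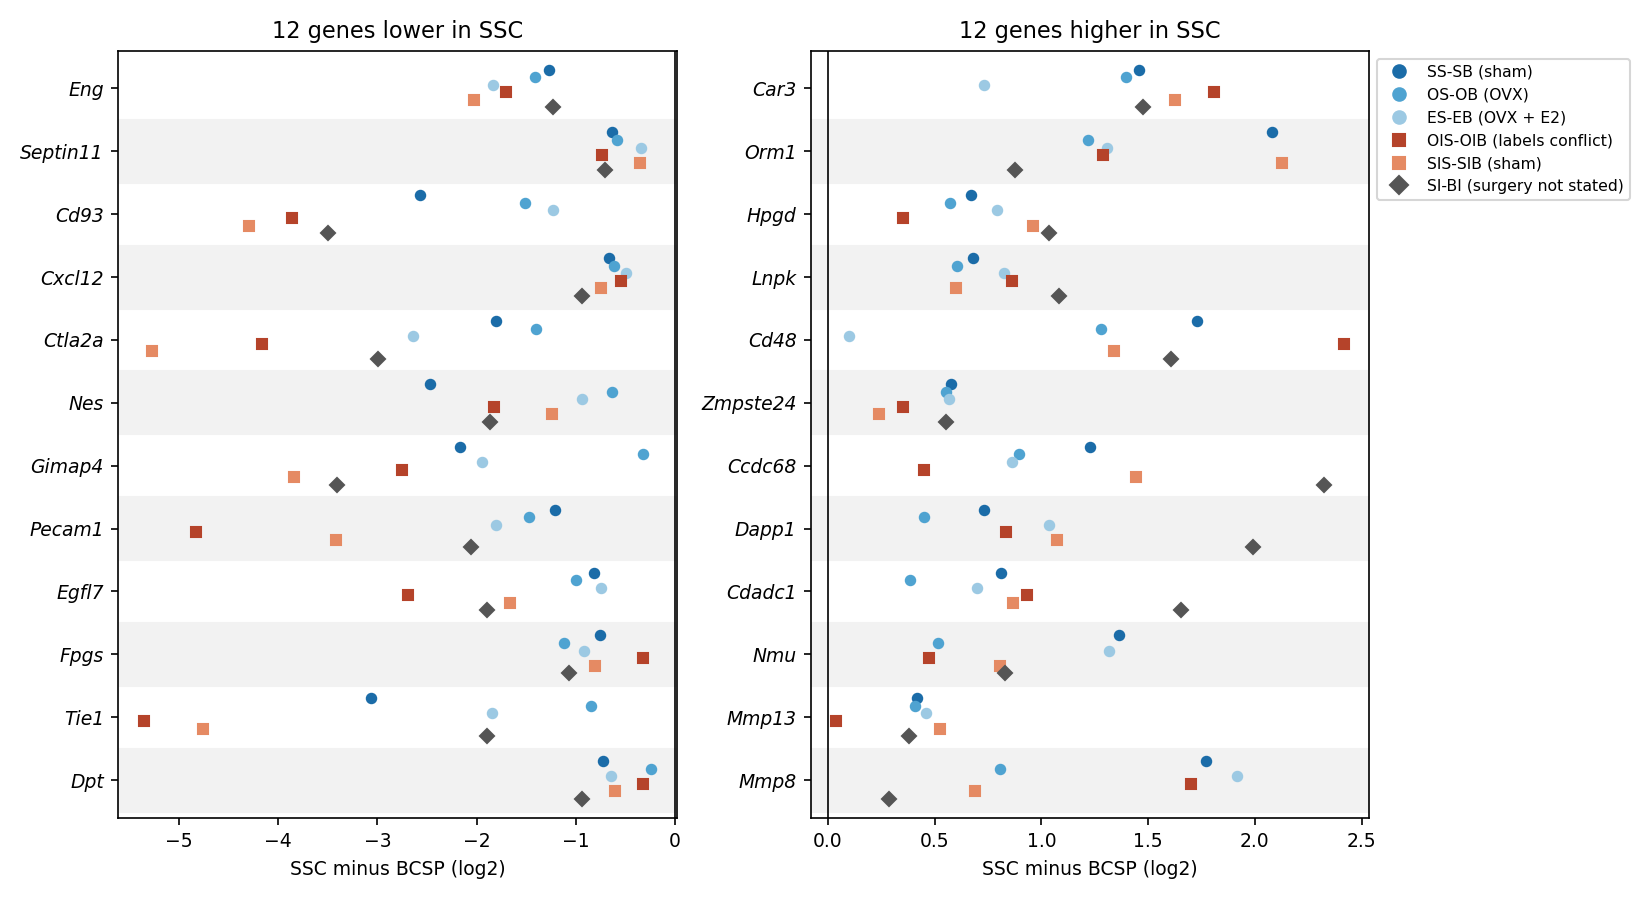
SSC minus BCSP (log2, horizontal axis) in each of the 6 pairs for the 12 genes of smallest p among those lower in SSC (left) and the 12 among those higher in SSC (right). Points on the left all lie under 0 while those on the right lie over 0, and Pecam1 and Tie1 have their lowest values in OIS-OIB, at -4.83 and -5.36.

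The 12 genes of smallest p among those lower in SSC were Eng, Septin11, Cd93, Cxcl12, Ctla2a, Nes, Gimap4, Pecam1, Egfl7, Fpgs, Tie1 and Dpt. Each was lower in SSC in all 6 pairs, and each is a description, since the adjusted p was between 0.151 and 0.448. Of the 12, 3 belong to the endothelial list (Pecam1, Egfl7 and Tie1). Pecam1, the adhesion molecule CD31, was 8.44 at the lowest, 8.89 at the median and 9.24 at the highest in SSC, against 9.90, 10.85 and 13.62 in BCSP. Tie1, a receptor tyrosine kinase of endothelium, was 6.37, 6.76 and 7.33 in SSC, against 8.17, 9.31 and 12.36 in BCSP. For both genes the groups did not overlap, and the highest BCSP array was OIB. Cd93, a lectin-like receptor of endothelium and myeloid cells, differed by -2.83 ± 0.41 (SE), with single pairs between -4.29 and -1.23. Ctla2a, which encodes a cysteine protease inhibitor, differed by -3.04 ± 0.47 (SE), with pairs between -5.27 and -1.40. Egfl7, a protein that endothelial cells secrete, differed by -1.47 ± 0.27 (SE).

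The promoters of 3 of the genes lower in SSC and of 1 gene higher in SSC are shown because factors of the ETS family, which bind GGAA cores, are known regulators of endothelial genes. Each is the stretch of 250 bases before the gene's start, from RefSeq on GRCm38.p6, read 5′ to 3′ on the gene's strand, with matches to AGGAAG or CGGAAG, or to their reverse complements CTTCCT and CTTCCG, in capitals. Eng lies at chr2:32646345-32646594 (plus strand), Tie1 at chr4:118489850-118490099 (minus strand), Robo4 at chr9:37401722-37401971 (plus strand) and Mmp13 at chr9:7272264-7272513 (plus strand).
Eng: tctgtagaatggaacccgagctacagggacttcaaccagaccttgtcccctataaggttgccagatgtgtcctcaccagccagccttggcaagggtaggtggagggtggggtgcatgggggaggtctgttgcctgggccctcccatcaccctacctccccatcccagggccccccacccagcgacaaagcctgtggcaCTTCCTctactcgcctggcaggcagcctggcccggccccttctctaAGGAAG
Tie1: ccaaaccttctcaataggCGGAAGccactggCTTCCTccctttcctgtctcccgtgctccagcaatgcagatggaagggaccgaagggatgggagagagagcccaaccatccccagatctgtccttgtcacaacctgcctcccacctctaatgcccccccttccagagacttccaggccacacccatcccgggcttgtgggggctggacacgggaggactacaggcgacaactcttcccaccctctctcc
Robo4: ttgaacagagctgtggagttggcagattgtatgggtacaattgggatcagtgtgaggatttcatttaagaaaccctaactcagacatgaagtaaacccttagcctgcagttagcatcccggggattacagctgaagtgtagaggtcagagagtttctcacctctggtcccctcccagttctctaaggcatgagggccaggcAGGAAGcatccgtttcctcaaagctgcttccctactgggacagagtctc
Mmp13: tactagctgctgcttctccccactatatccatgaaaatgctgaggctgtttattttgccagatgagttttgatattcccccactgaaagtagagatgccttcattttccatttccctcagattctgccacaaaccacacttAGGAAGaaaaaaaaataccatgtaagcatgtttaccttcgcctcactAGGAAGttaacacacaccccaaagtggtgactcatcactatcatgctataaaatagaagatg
A match was found in 5 of the 10 promoters matched for the 12 genes lower in SSC, in 6 of the 9 matched for the 12 genes higher in SSC, and in 6 of the 10 matched for the endothelial list. It was found in 45% of the promoters of all genes tested and 39% of all promoters of this length, and the shares were not tested against each other. The promoters shown were picked by hand and each carries a match, so they do not stand for these groups. Robo4 is not among the 12 genes lower in SSC. A match is a description of the sequence only.

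Of the 37 gene lists examined, the 18 endothelial genes tested had the largest median difference. Of these members, 17 were lower and 1 was higher in SSC, none passed the adjusted test, and the median difference was -2.11, against -0.01 over all genes tested. Of the 18 members, 11 were lower in SSC in all 6 pairs, against 4.51% of all genes tested, and for 8 the groups did not overlap, against 0.235%. Their mean level was 7.24 to 7.73 over the 6 SSC arrays and 8.18 to 11.87 over the 6 BCSP arrays. The VEGF receptor Flt1 was 6.56 at the lowest, 6.83 at the median and 7.60 at the highest in SSC, against 8.22, 9.01 and 12.18 in BCSP. The VEGF receptor Kdr differed by -2.37 ± 0.58 (SE), without overlap. Robo4, a guidance receptor of endothelium, lay at the floor of 5.95 on all 6 SSC arrays. On the BCSP arrays it was 6.79 to 10.71, so its difference of -2.21 understates the gap. It passed the filter only through the BCSP arrays, so its direction was fixed by the floor and the filter. It is among the 11 and the 8 members counted above and adds no support to them. Other members were also dim in SSC, and the SSC median of Flt1, 6.83, lay under the filter level. From 1 to 4 of the 18 members lay at the floor on each SSC array, against 0 on each BCSP array. A gene dim in SSC could enter the test through the BCSP arrays, which favours the lower direction. How far this raised the 11 and the 8 was not tested, so they only describe these members beside the shares of all genes. The member higher in SSC was Erg, an ETS factor that cartilage also expresses, at 0.19 (higher in SSC in 4 of 6 pairs). In bulk samples fewer cells of a type and less RNA per cell cannot be told apart.

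The endothelial difference was larger in the pairs with three-letter codes. The list median was -1.13 in SS-SB, -0.80 in OS-OB, -0.86 in ES-EB, -4.94 in OIS-OIB, -3.55 in SIS-SIB and -1.81 in SI-BI. The 2 pairs with three-letter title codes had a median of -4.36, against -0.85 in the 3 pairs with two-letter codes. In uninjured bone the list median was -2.74 in OUS-OUB, which also has three-letter codes, and -0.22 in SU-BU. Those 2 uninjured pairs differ in surgery as well, so title form and surgery cannot be told apart between them. The difference was thus also present in the uninjured pair OUS-OUB, and whether it is particular to callus is not settled. For each gene, the test was of the difference of SSC minus BCSP between title forms. The moderated F test over the 3 forms called 3267 genes (23.2% called) and did not call Eng (adjusted p = 0.458). That test takes the single pair SI-BI to vary like the other pairs. Between the three-letter and the two-letter pairs alone, 21 genes were called (0.149% called), 20 of them lower in the three-letter pairs. Of these 21, 8 belong to the endothelial list. For Robo4, at the floor on all SSC arrays, this test reflects the BCSP levels alone.

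Cdh5, the cadherin of endothelial junctions, differed by -6.01 in the three-letter pairs and by -2.19 in the two-letter pairs, a difference of -3.83 ± 0.29 (SE, adjusted p = 0.0069, limma), and by 0.57 in SI-BI. Ptprb, an endothelial phosphatase that acts on Tie2, differed by -5.35 in the three-letter pairs and by -0.49 in the two-letter pairs (adjusted p = 0.0285, limma). Col4a1, a chain of basement membrane collagen, differed by -3.18 in the three-letter pairs and by -1.01 in the two-letter pairs (adjusted p = 0.0065, limma). Cd34, a sialomucin of endothelium and progenitors, differed by -3.35 in the three-letter pairs and by -0.43 in the two-letter pairs (adjusted p = 0.0069, limma). The others lower in the three-letter pairs were Plvap, Robo4, Sema3g, Podxl, C1qtnf9, Adgrf5, Cav1, Lhx6, Col18a1, Vwf, Fabp4, Kdr, Icam2, Nos3, Adamts4 and Sox18. The 1 gene higher in them was Atxn7l1, at 1.26 in the three-letter pairs and -1.02 in the two-letter pairs. The count was 0 without SS-SB, OS-OB, ES-EB or OIS-OIB and 39 without SIS-SIB, of which 12 were among the 21. All 21 kept their sign in each of these fits. Eng differed by -1.86 in the three-letter pairs and by -1.50 in the two-letter pairs (adjusted p = 0.825, limma). Tek moved with this result, at 11.70 on OIB and 9.88 on SIB. The 3′ minus 5′ signal of the actin control, a measure of RNA integrity, was 0.30 to 0.72 (log2) on the 4 three-letter callus arrays and 0.16 to 0.34 on the 6 two-letter ones, ranges that overlapped at SIB alone. The same measure of GAPDH overlapped more widely, at 0.24 to 0.32 on the three-letter arrays and 0.17 to 0.30 on the two-letter ones. Between partners the actin measure was lower in OIS than in OIB (0.53 and 0.72) and higher in SIS than in SIB (0.57 and 0.30). The part of Tek or actin in the result was not tested.

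**Figure D3:**
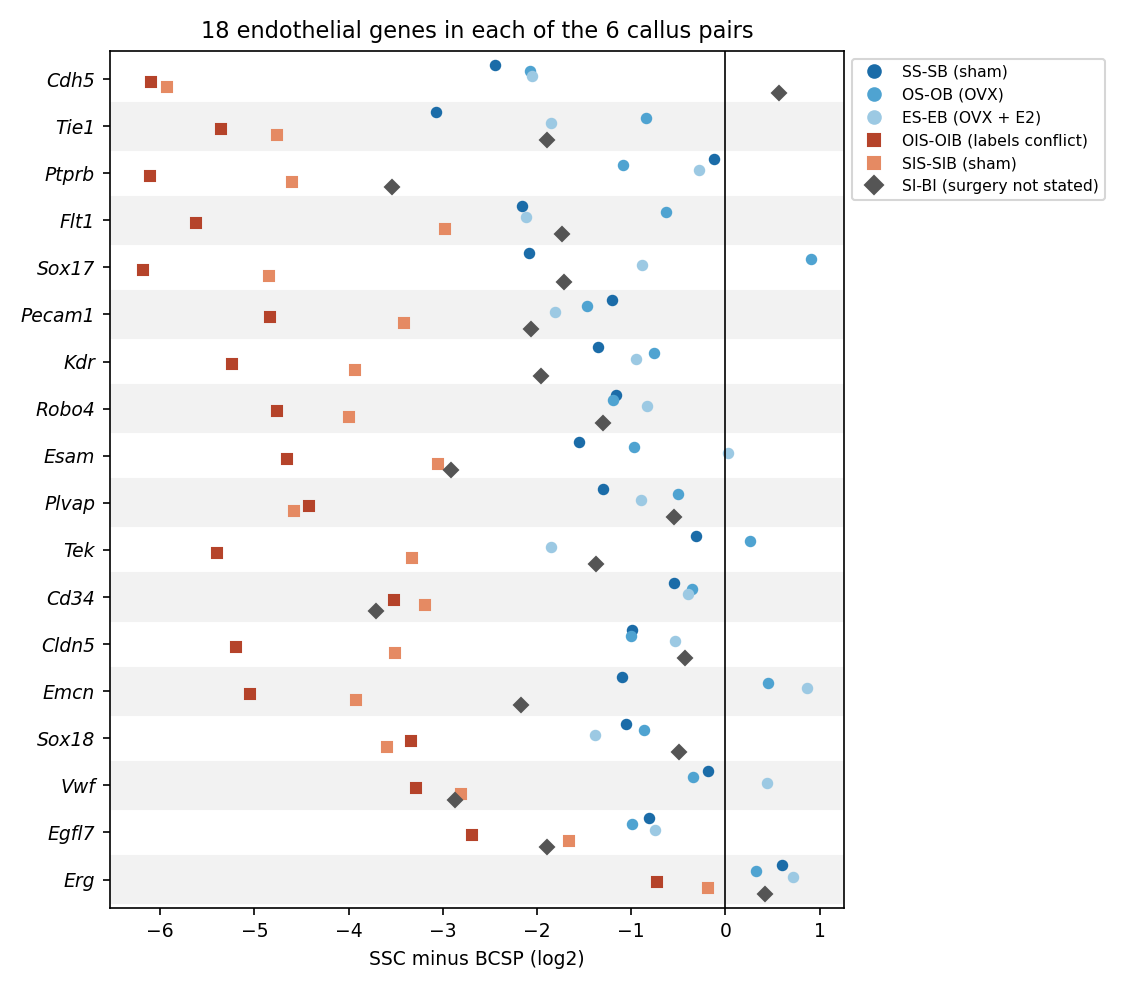
SSC minus BCSP (log2, horizontal axis) of the 18 endothelial genes in each of the 6 callus pairs, ordered by their mean difference. Squares, the 2 pairs with three-letter codes, lie leftmost for most genes, and Cdh5 shows the spread, from -6.10 in OIS-OIB to 0.57 in SI-BI.

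Some genes of stroma and of perivascular cells were also lower in SSC in all 6 pairs, by smaller amounts, but the contractile and pericyte list was mixed. Of its 14 members tested, 5 were higher and 9 lower in SSC (median -0.02), and 7 were higher and 7 lower without SI-BI (median 0.01). Its median was 0.22 in the three-letter pairs and -0.14 in the two-letter pairs. Cxcl12, the chemokine that retains haematopoietic cells in marrow, was 9.57 at the lowest, 11.77 at the median and 12.51 at the highest in SSC, against 10.31, 12.37 and 13.13 in BCSP. The groups overlapped, but the pair differences were narrow, from -0.94 to -0.49, with a mean of -0.67 ± 0.10 (SE, adjusted p = 0.254, limma). Its 2 other probe sets differed by -1.41 and -1.95, each lower in SSC in 6 of 6 pairs. Nes, an intermediate filament of progenitors and perivascular cells, averaged 8.23 ± 0.83 in SSC and 9.73 ± 0.44 in BCSP (SD, n = 6 each), with the highest SSC array at 9.26 and the lowest BCSP array at 9.27, and differed by -1.50 ± 0.25 (SE). Its 2 other probe sets differed by less, -0.42 (lower in 4 of 6 pairs) and -0.56 (lower in 5 of 6 pairs). Dpt, a small matrix protein, differed by -0.58 ± 0.11 (SE), and Septin11, a cytoskeletal GTPase, by -0.56 ± 0.08 (SE). Cxcl12 differed by -0.64 in the three-letter pairs and by -0.59 in the two-letter pairs, and Nes by -1.54 in the three-letter pairs and by -1.35 in the two-letter pairs. Of the 20 stem and stromal genes, 13 were lower and 7 higher in SSC, with a median of -0.15. Among them Pdgfrb, a receptor of pericytes and stroma, differed by -0.57 (lower in 6 of 6 pairs), and Lepr, the leptin receptor of marrow stroma, by -0.86 (lower in 5 of 6 pairs). None passed the adjusted test.

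In the TGF-beta and BMP family, in which endoglin acts, some genes had 1 direction in all 6 pairs and most did not. Of the 19 receptors and SMADs, 1 was higher and 1 lower in all 6 pairs. Of the 21 ligands and antagonists, 2 were higher and 3 lower in all 6, and of the 12 target genes 1 was higher and 0 lower. Over all genes tested these shares were 3.75% higher and 4.51% lower. The single genes given next are the members of smallest p or were named after their values were seen. Acvrl1, the ALK1 receptor, was 7.48 at the lowest, 9.43 at the median and 9.97 at the highest in SSC, against 8.62, 10.11 and 10.46 in BCSP, and differed by -0.76 ± 0.16 (SE, adjusted p = 0.448, limma). The 19 TGF-beta and BMP receptors and SMADs split into 9 higher and 10 lower in SSC (median -0.05), and into 6 higher and 13 lower without SI-BI (median -0.14). Of the 21 ligands and antagonists tested, 13 were higher and 8 lower (median 0.13), and 12 were higher and 9 lower without SI-BI (median 0.05). Bmp1, a protease that processes procollagens and chordin, differed by -0.64 ± 0.13 (SE), and Ltbp2, a latent TGF-beta binding protein family member, by -0.59 ± 0.13 (SE). Inhbb, the activin beta B chain, differed by -1.46 ± 0.35 (SE), with -0.05 in SI-BI. Bambi, a decoy receptor that dampens TGF-beta signals, was higher in SSC in all 6 pairs, by 0.59 ± 0.14 (SE). The 12 target genes of the pathway split into 6 and 6. The Notch list had 10 of 12 members lower in SSC, with a median of -0.48. Like that of the endothelial list, its median lay lower in the three-letter pairs (-0.87) than in the two-letter pairs (-0.27). Notch1 differed by -0.75 ± 0.16 (SE, lower in 6 of 6 pairs), and its ligand Dll4, which endothelium also expresses, by -0.58 (lower in 6 of 6 pairs). Colony stimulating factor Csf1 differed by -0.68 and Il6st, the shared receptor gp130 of the IL-6 family, by -0.49, both lower in SSC in 6 of 6 pairs. None of these genes passed the adjusted test.

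The 12 genes of smallest p among those higher in SSC were Car3, Orm1, Hpgd, Lnpk, Cd48, Zmpste24, Ccdc68, Dapp1, Cdadc1, Nmu, Mmp13 and Mmp8, each higher in all 6 pairs and with an adjusted p between 0.233 and 0.448. Car3, a carbonic anhydrase, was 7.78 at the lowest, 8.01 at the median and 10.57 at the highest in SSC, against 6.39, 6.83 and 8.76 in BCSP. It differed by 1.42 ± 0.18 (SE), with single pairs between 0.73 and 1.81, and the groups overlapped, since OIB (8.76) and BI (7.94) lay above the lowest SSC array. Orm1, an acute-phase plasma protein, was 7.45, 8.67 and 9.52 in SSC, against 6.03, 6.93 and 8.64 in BCSP. Hpgd, the enzyme that inactivates prostaglandins, differed by 0.73 ± 0.11 (SE). Zmpste24, the protease that matures lamin A, differed by 0.47 ± 0.10 (SE), and Nmu, the neuropeptide neuromedin U, by 0.89 ± 0.18 (SE). Cdadc1 was the only one of the 12 whose groups did not overlap, at 9.79 to 10.39 in SSC and 8.63 to 9.46 in BCSP. It differed by 0.89 on that probe set, but by -0.05 and 0.20 on the 2 other probe sets of like level, so its value is uncertain.

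Other probe sets did not all follow. Of 29 further probe sets of the 24 genes named in both directions, 25 had the same sign and 4 the opposite sign. The 4 were 2 of Car3 that lay near the floor, 1 of Cdadc1 and 1 of Septin11.

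Genes of hypertrophic cartilage, the zone in which chondrocytes enlarge before bone replaces them, were higher in SSC by small amounts. All 8 members tested were higher, 5 of them in all 6 pairs, against 3.75% of all genes tested, with a median of 0.32, and 0.22 without SI-BI. The median was 0.08 in the three-letter pairs and 0.33 in the two-letter pairs. In uninjured bone the list median had the opposite sign, at -0.64 in SU-BU and -0.20 in OUS-OUB. Not every member was higher throughout: Ibsp differed by -0.07 in the three-letter pairs, by 0.26 in the two-letter pairs and by -0.61 in SI-BI. Mmp13, the collagenase of hypertrophic chondrocytes and osteoblasts, was 12.93 at the lowest, 13.71 at the median and 13.97 at the highest in SSC, against 12.40, 13.28 and 13.87 in BCSP. It differed by 0.37 ± 0.08 (SE), with 0.04 in OIS-OIB. Panx3, a channel of hypertrophic chondrocytes and osteoblasts, differed by 0.70 ± 0.17 (SE) and Vegfa by 0.27 ± 0.08 (SE), both higher in 6 of 6 pairs. Indian hedgehog, Ihh, differed by 0.64 with all pairs and by 0.35 without SI-BI. Col10a1, the collagen that defines these cells, was 13.42 to 14.99 on the SSC arrays and 13.23 to 15.04 on 5 BCSP arrays, with 7.29 on BI. Its difference of 1.19 became 0.20 without SI-BI.

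The wider cartilage list depended on SI-BI. Of 21 members, 18 were higher in SSC with all pairs (median 0.15), and 9 were higher and 12 lower without SI-BI (median -0.05). Acan and Col2a1, the main proteoglycan and collagen of cartilage, differed by 0.04 and 0.07, and by -0.12 and -0.09 without SI-BI. Of 15 osteoblast and mineralization genes, 12 were higher in SSC (median 0.19), and 11 were without SI-BI (median 0.13). Omd, a proteoglycan of bone, differed by 0.73 ± 0.19 (SE, higher in 6 of 6 pairs). Sp7, a transcription factor that osteoblasts need, differed by 0.42 (higher in 6 of 6 pairs). Eln, which encodes elastin, differed by -0.77 ± 0.18 (SE, lower in 6 of 6 pairs), and the fibrous matrix list had 15 of 23 members lower in SSC (median -0.06), and 17 of 23 without SI-BI (median -0.14). None of these genes passed the adjusted test.

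Genes of blood cells differed as well, although the sort excluded leukocytes and red cells. Of 12 neutrophil genes, 12 were higher in SSC (median 0.70), of 17 macrophage and monocyte genes 15 were (median 0.48), and of 10 pan-leukocyte genes 9 were (median 0.62). None passed the adjusted test with all pairs. Camp, an antimicrobial peptide of neutrophil granules, averaged 13.65 ± 1.27 in SSC and 12.72 ± 1.47 in BCSP (SD, n = 6 each) and was higher in SSC in 6 of 6 pairs, by 0.93 ± 0.24 (SE). Mmp8, the neutrophil collagenase, was 7.49 at the lowest, 9.58 at the median and 12.75 at the highest in SSC, against 5.95, 8.28 and 11.05 in BCSP. Itgam, the integrin CD11b, differed by 1.18 ± 0.28 (SE, higher in 5 of 6 pairs), and Lyz2, the lysozyme of myeloid cells, by 0.63 ± 0.17 (SE, higher in 5 of 6 pairs). Cd48, a surface protein of most leukocytes, differed by 1.41 ± 0.28 (SE), with 0.10 in ES-EB.

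The leukocyte lists did not go one way in every pair. The neutrophil median was 0.99 in SS-SB, 0.66 in OS-OB, 1.95 in ES-EB and 1.29 in OIS-OIB, but -0.19 in SIS-SIB and -0.27 in SI-BI. The mean level of the neutrophil list was 9.76 to 13.19 on the SSC arrays and 9.05 to 12.91 on the BCSP arrays, and these ranges overlapped over most of their span. The 7 erythroid genes tested were all lower in SSC with all pairs (median -0.30) and all higher without SI-BI (median 0.47). Their median was -4.16 in SI-BI, where Slc4a1, the anion exchanger of red cells, was 9.37 on SI and 14.50 on BI. The part of blood cells in these results was not tested.

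**Figure D4:**
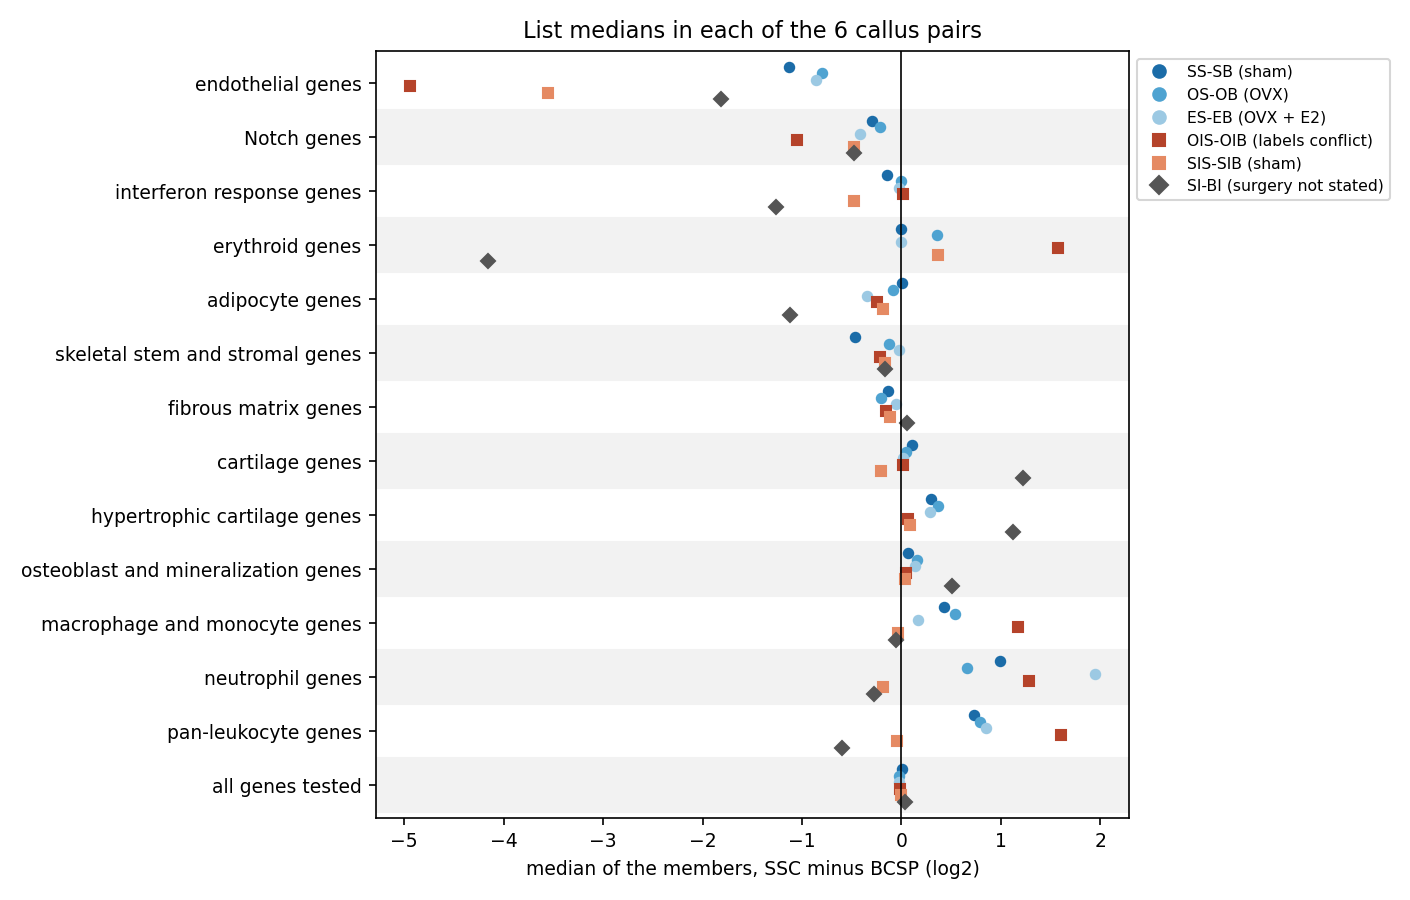
Median SSC minus BCSP (log2, horizontal axis) of the tested members of 13 gene lists and of all genes tested, in each of the 6 callus pairs. Endothelial and Notch lists lie below 0 in all 6 pairs and hypertrophic cartilage above it in all 6, while leukocyte lists lie on both sides of 0 and SI-BI (diamonds) stands apart for the erythroid and cartilage lists.

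The interferon list had 13 of 14 members lower in SSC (median -0.43), and 11 of 14 without SI-BI (median -0.19), in which the median was -1.26. The class I histocompatibility genes H2-K1 and H2-D1 differed by -0.49 and -0.57 and were lower in 6 of 6 pairs. All 8 adipocyte genes were lower in SSC (median -0.29), and 5 were without SI-BI (median -0.09). Fabp4, a fatty acid carrier of adipocytes and of capillary endothelium, differed by -1.88 ± 0.58 (SE). Of the 25 cell cycle genes, 14 were higher and 11 lower in SSC (median 0.03), and 18 were higher and 7 lower without SI-BI (median 0.13), in which the median was -0.90. The 29 Wnt genes had a median of 0.15, and of -0.02 without SI-BI, and the 13 hedgehog genes of -0.03, and of -0.05 without SI-BI. Of the 12 ribosomal and mitochondrial genes, 7 were higher and 5 lower in SSC (median 0.03), and 5 were higher and 7 lower without SI-BI (median -0.01).

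By condition, the OVX with E2, OVX and sham pairs can only be set side by side, since OVX and OVX with E2 have 1 pair each. Eng differed by -1.83 in the OVX with E2 pair, by -1.41 in the OVX pair and by -1.27 and -2.02 in the sham pairs. Cxcl12 differed by -0.49 in the OVX with E2 pair, by -0.61 in the OVX pair and by -0.67 and -0.75 in the sham pairs. The OVX and E2 values of Eng lay between those of the sham pairs, and those of Cxcl12 lay closer to 0 than both. Nes differed by -0.94 in the OVX with E2 pair, by -0.63 in the OVX pair and by -2.47 and -1.24 in the sham pairs. Esr1, the estrogen receptor alpha, averaged 8.85 ± 0.39 in SSC and 8.70 ± 0.59 in BCSP (SD, n = 6 each), with 3 pairs in each direction and a difference of 0.15, or 0.06 without SI-BI. Esr2, the estrogen receptor beta, differed by -0.25 in the three-letter pairs, by -0.03 in the two-letter pairs and by -0.67 in SI-BI. Of the 17 tested genes that the study names for these arrays, a list chosen on these samples, 9 were higher and 8 lower in SSC. Ptch1, the hedgehog receptor, differed by 0.46 (higher in 5 of 6 pairs), Smo, its signalling partner, by -0.21 (lower in 6 of 6 pairs, but 0.32 with its probe set of widest range), and Ltf, the lactoferrin of neutrophil granules, by 0.67 (higher in 4 of 6 pairs). None passed the adjusted test.

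The difference of SSC minus BCSP was then compared between callus (6 pairs) and uninjured bone (1 sham pair, SU-BU, and 1 OVX pair, OUS-OUB) as an interaction over 14464 genes. No gene was called (0% called, limma), 874 passed an unadjusted p of 0.05, and the smallest adjusted p was 0.374. Eng differed by -1.58 in callus and by -0.32 in uninjured bone, with -0.32 and -0.33 in the 2 uninjured pairs. The difference between these was -1.25 ± 0.33 (SE, unadjusted p = 0.0036, adjusted p = 0.787 over the 14464 genes, limma). It did not pass the adjusted test, and only 2 uninjured pairs were there to compare. Pecam1 differed by -2.46 in callus and by -2.35 in uninjured bone, and Nes by -1.50 in callus and by 0.13 in uninjured bone. Among the 5 genes of smallest p in each direction, Tubb2a, a tubulin, differed by 0.02 in callus and by -1.44 in uninjured bone, and Tceal9 by 0.11 in callus and by -1.12 in uninjured bone. Hspe1, the mitochondrial chaperonin partner, Calhm5 and Igk-V21 went the same way. Ugt8a, an enzyme of myelin lipid synthesis, differed by 0.08 in callus and by 2.82 in uninjured bone, and Mapk4, Nrg4, Bcar3 and 2310047D07Rik went the same way. Without OUS-OUB the count was 235 and without SU-BU it was 2, and in each case a single uninjured pair remained. Ptprc lay at 6.58 to 13.53 on the callus arrays and at 13.79 to 14.74 on the uninjured arrays, and the part of leukocytes in this comparison was not tested.

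**Figure D5:**
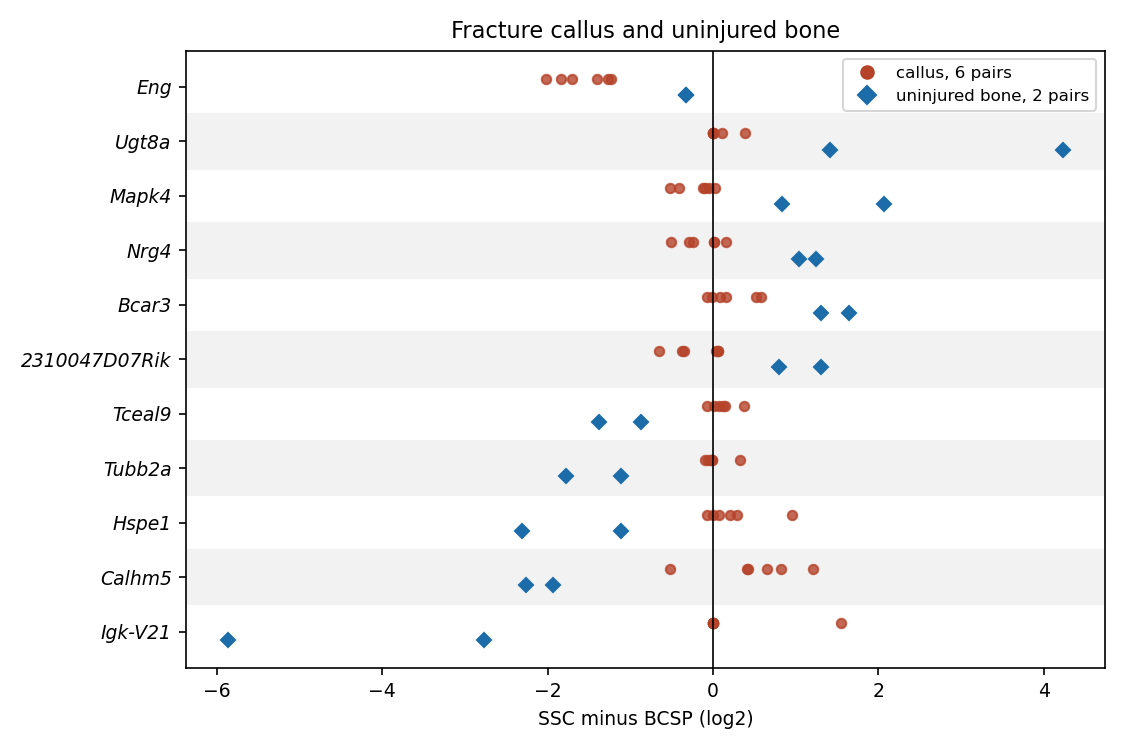
SSC minus BCSP (log2, horizontal axis) in the 6 callus pairs (circles) and the 2 uninjured pairs (diamonds) for Eng and for the 5 genes of smallest p in each direction of the comparison. The 2 uninjured values of Eng lie near -0.32, closer to 0 than every callus pair, and for the other 10 genes the uninjured values lie outside the range of the callus pairs.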

How the data were processed

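RNA of double-sorted SSC and BCSP was amplified in 2 rounds and hybridised to Affymetrix mouse gene expression arrays. The authors deposited 1 value per probe set on a log2 scale. Their methods name dChip and Gene Expression Commons and the submitters' processing notes name MAS5, with no version, and which of these made the deposited values could not be settled. The methods state no test for the arrays. The members and gene lists were chosen with earlier results of these data known.

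The 17 arrays were quantile normalized together, and values under the 20th percentile (5.95) were set to it. Of 45101 probe sets, 64 were controls, 34945 had 1 gene symbol, 932 several and 9160 none. Each of 18193 genes was represented by its brightest probe set. A gene entered the test if 2 or more of the 12 callus arrays reached the 40th percentile (7.20), as 14065 did. SSC minus BCSP was fitted with limma (version 3.58.1, R 4.3.3), trend moderation and the pair as a block, with Benjamini-Hochberg adjustment at 0.05. The pairing rests on shared condition and title-code form. Deviations from the group means correlated at 0.22 to 0.61 within pairs. Each SSC array matched its own BCSP partner best, and the best SSC match of each BCSP array was not looked up. The procedure was tested on simulated data in which every pair had the same noise, so a pair as wide as SI-BI was not covered. Genes were named by a rule: the sort markers, the 12 of smallest p in each direction (none being called), up to 4 members of smallest p of each list, the 5 of smallest p in each direction against uninjured bone, and genes that the study names. The genes called between title forms and other list members were named after their values were seen. Alternatives changed the normalization, floor, filter, probe set, block, moderation and the pairs included. The number of arrays limits the precision.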

Additional observations from a re-analysis of the deposited data

Results flagged for a closer look

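In 11 of 200 groups of 6 arrays looked at, 1 array lay far from the other 5, and chance gives this in about 1 of 20 groups. BI was the array in 4 cases, SI in 3, OIB in 2, and SS and EB in 1 each. Acvrl1 was 7.48 (log2 level) on SI and 8.62 on BI, in both cases the lowest of its population. Fgf2 was 5.95, the floor, on SI, and Uqcrc1 was 11.5 on SI. On BI, Mkx was 7.40 and Ankrd37 was 7.99, each the lowest BCSP array, and Mepe was 8.57, the highest. Hey1 was 10.8 and Lepr was 9.99 on OIB, the highest BCSP array for both. Zmpste24 was 11.6 on SS, the lowest SSC array, and Rarb was 6.97 on EB, the highest BCSP array.

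SSC minus BCSP differed between the three-letter and the two-letter pairs for 21 genes by limma's test of the difference itself. For endothelial list members the three-letter minus two-letter value (log2) was -3.83 for Cdh5, -2.92 for Cd34, -3.60 for Plvap, -3.31 for Robo4, -4.86 for Ptprb, -3.01 for Vwf, -3.56 for Kdr and -2.36 for Sox18. For the other genes lower in the three-letter pairs it was -2.18 for Col4a1, -3.43 for Sema3g, -3.93 for Podxl, -2.74 for C1qtnf9, -2.91 for Adgrf5, -1.85 for Cav1, -2.85 for Lhx6, -2.21 for Col18a1, -3.22 for Fabp4, -2.64 for Icam2, -2.60 for Nos3 and -1.60 for Adamts4. Atxn7l1 had the opposite direction, at 2.28.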

How the results depend on the processing

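The count of genes called between SSC and BCSP was 0 in 20 of 26 other settings. It was 1 without the replicate block and 1 with the pair as a random block, 14 with array weights (an alternative chosen after seeing the data, in which SI-BI weighed 0.15 and the other pairs 1.15 to 2.05), 1464 at an unadjusted p of 0.05, and 96 within the three-letter pairs (4 higher, 92 lower in SSC), against 0 within the two-letter pairs. Leaving out 1 pair at a time gave 0 to 3. Eng passed the test without the pairing (-1.58), with the pair as a random block (-1.58) and with array weights (-1.63), and leaving out a pair gave -1.65 to -1.49. Its adjusted p by limma ranged from 0.00188 to 0.619 over 23 alternatives. Against uninjured bone, 5 genes were called with no filter on dim genes, and leaving out a pair gave 0 to 235. Scaling the callus arrays alone was not run for that comparison, since it leaves out the uninjured arrays. Between the three-letter and two-letter pairs, alternatives chosen after seeing the data gave 2 genes with the probe set of widest range, 0 with no filter on dim genes and 0 to 39 when a pair was left out. The count over the 3 title forms was 2184 to 4802. Of 2157 values of 99 other named genes, 2142 kept direction and call and 11 were newly called. The 4 of opposite direction were Igk (-0.75), Smad4 (0.064) and Smo (0.32) with the probe set of widest range, and Frzb (-0.11) with all 17 arrays unpaired. The cause of these changes was not tested. Arrays near the floor bound how low SSC levels of Robo4 can be read.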
